A study of Psychotria grandis and Psychotria costivenia and Psychotria revoluta with 6 samples.

Results

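The contigs described here had no read in either leaf library of Psychotria revoluta, the study's nickel non-accumulator, and reads in all 4 leaf libraries of the nickel hyperaccumulators Psychotria grandis and Psychotria costivenia. A contig is an assembled transcript or part of one. Members were chosen from the raw read counts, as contigs with 0 counts in both P. revoluta libraries and at least 20 counts in each of the other 4. Of 45143 contigs, 277 met this rule (0.614%), which is 1.24% of the 22295 contigs with at least 20 counts in each P. grandis and P. costivenia library. Their absence in P. revoluta and their presence in the other species are therefore the choice itself and not a finding, and no test is given for either.

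Polyadenylated leaf RNA was sequenced from 6 wild plants, 1 library a plant and 2 plants a species, growing on serpentine soil in gallery forest in Cuba. The locality of P. grandis and P. revoluta was Mil Cumbres, where both P. grandis plants and P. revoluta plant 2 were dated 27 June 2014 and P. revoluta plant 1 was dated 27 July 2014. P. costivenia was collected at La Coca, with both plants dated 12 June 2014. Per the series design text, reads of all species were compared on the transcriptome of P. grandis, assembled from 1 plant. Library totals ran from 45676087 to 57907913 counts, and both P. revoluta libraries were deeper than P. grandis plant 2 and both P. costivenia libraries. The count columns of the P. revoluta tables carry another species prefix, Pcle, in their headers, and the species is given here as the labels have it. P. grandis and P. revoluta thus shared a locality, and P. revoluta plant 2 also the date, whereas P. costivenia differed from both in locality and date, which cannot be told apart from species there. As P. revoluta is the only non-accumulator, its phenotype cannot be told apart from its other traits as a species.

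Nickel hyperaccumulators hold metal in their leaves at levels that are toxic to most plants. They are studied for the uptake, chelation and vacuolar storage of nickel, steps in which transporters and small metal-binding molecules such as organic acids and nicotianamine take part. When RNA of several species is counted on contigs of a single species, a count of 0 can mean a transcript that is not made, a gene that is not there, or a sequence too different for its reads to be placed. These cannot be told apart from counts. In leaf RNA, fewer cells of a type and less RNA per cell cannot be told apart either. The contigs carry running numbers in the files, so each is named by its number and no gene, role or sequence is given.

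The P. grandis plants differed from each other. Over all 45143 contigs, their log2(CPM + 1) had a Pearson's r of 0.851 (CPM are counts divided by the total of the library and put on a common scale). P. grandis plant 1 had the lower values with the other species, 0.810 and 0.829 with the P. costivenia plants and 0.783 and 0.789 with the P. revoluta plants. P. grandis plant 2 had 0.889 and 0.892 with the P. costivenia plants and 0.960 and 0.963 with the P. revoluta plants. So P. grandis plant 2 was closer to each plant of the other species than to P. grandis plant 1. The reason was not tested, and its label is used as given. The r between the plants of a species was 0.974 in P. costivenia and 0.989 in P. revoluta. These are descriptions across contigs, which are not independent replicates. Results on the 277 contigs are given below with and without the P. grandis libraries where these change them.

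Among the hyperaccumulator libraries, P. grandis plant 2 limited the size of the list most. In all, 5262 contigs had reads somewhere and none in P. revoluta, and 2049 of them reached 20 counts in at least 1 library. P. grandis plant 1 reached that minimum for 1742 contigs and P. grandis plant 2 for 519. P. costivenia plants 1 and 2 reached it for 869 and 926 contigs. P. grandis plant 1 alone did so for 817 contigs, and both P. costivenia plants without P. grandis for 152. A further 282 contigs reached it in P. grandis plant 1 and both P. costivenia plants but not in P. grandis plant 2, more than the 277 that reached it in all.

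**Figure D1:**
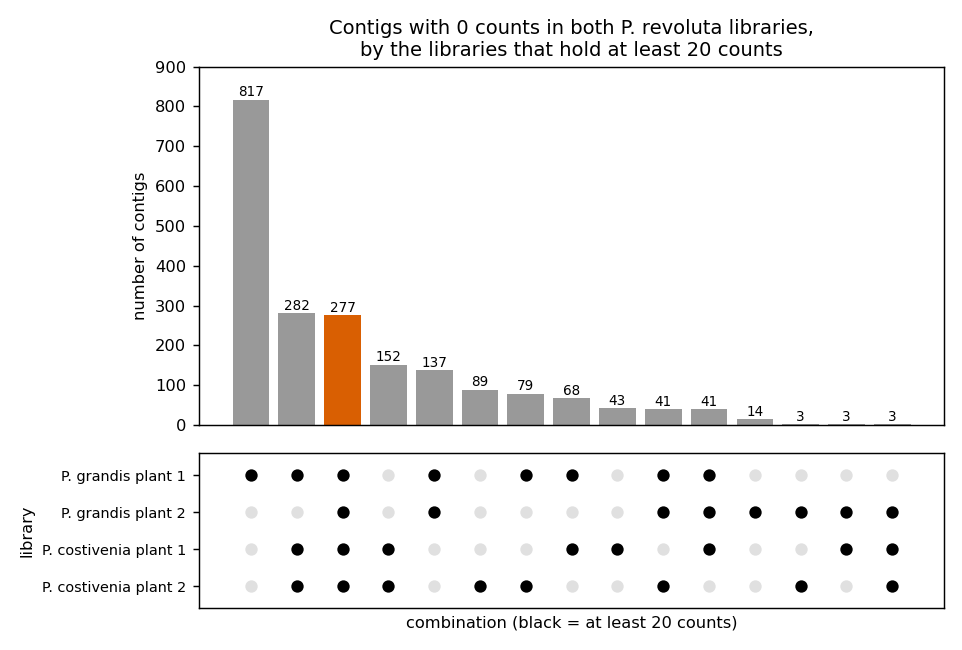
Number of contigs (vertical axis) with 0 counts in both P. revoluta libraries, for each combination of the 4 other libraries that held at least 20 counts (black dots under the bar). The 277 contigs with all 4 libraries (orange bar) stand beside 282 that lacked only P. grandis plant 2 and 817 that had P. grandis plant 1 alone.

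Each library in turn was read for contigs chosen by the other 3 hyperaccumulator libraries. Chosen without P. grandis plant 2, there were 559 contigs, of which 277 (49.6%) had at least 20 counts in that plant, 242 had 1 to 19 counts and 40 had none. Chosen without P. costivenia plant 1 or plant 2, there were 318 contigs each time, and 87.1% of them reached the minimum in the plant left out. Chosen without P. grandis plant 1, there were 280, of which 98.9% reached it. P. grandis plant 1 had reads on 45142 of the 45143 contigs, so a contig listed in the files almost always had a read there.

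The P. revoluta plants were read against each other in the same way. Of 372 contigs with 0 counts in P. revoluta plant 1 and at least 20 in each of the 4 hyperaccumulator libraries, 277 (74.5%) also had 0 in P. revoluta plant 2. Another 72 had 1 to 3 counts there and 3 had at least 20, with a highest count of 203. Chosen by P. revoluta plant 2 instead, 415 contigs qualified, 277 of them (66.8%) had 0 counts in plant 1, 100 had 1 to 3 and 3 had at least 20. Most contigs missed by 1 plant of P. revoluta were thus at or near 0 in the plant that had not been used to choose them.

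The limits of the list were gradual. Just outside it, 102 contigs had 1 count over both P. revoluta libraries, 70 had 2 and 56 had 3. Pgra_v1_contig_9868 had 1 count in P. revoluta plant 1 and 0 in plant 2, against 1255 and 483 counts in the P. grandis plants and 3827 and 3086 in the P. costivenia plants. Pgra_v1_contig_11985 likewise had 1 count in P. revoluta plant 1, against 1519, 238, 3492 and 5991 in the same order. A single read thus kept out contigs that were well covered elsewhere. At the other limit, 77 contigs without P. revoluta reads had a lowest count of 15 to 19, and 45 members had one of 20 to 24. Pgra_v1_contig_14097 (285, 57, 57 and 19 counts) and Pgra_v1_contig_16721 (552, 87, 38 and 19 counts) lay just below the minimum through P. costivenia plant 2. Pgra_v1_contig_5264 (69, 20, 47 and 30 counts) and Pgra_v1_contig_16008 (179, 52, 20 and 44 counts) lay just inside it.

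The members had low to moderate counts. The lowest count over the 4 libraries had a median of 37, was under 30 for 80 members, and was at least 100 for 33 members and at least 200 for 10. The mean over the 4 libraries was 1 to 10 CPM for 230 members, under 1 CPM for 18 and at least 10 CPM for 29. CPM are not divided by contig length, so they compare libraries for a contig and not contigs with each other. A count of 0 over both P. revoluta libraries, 106699243 counts in all, allows up to 3 counts, or 0.0281 CPM, and 0.0518 and 0.0615 CPM in P. revoluta plants 1 and 2 singly. These limits cover counting error only. Against 0.0281 CPM, the mean of the 4 libraries was at least 112.6-fold higher for the median member, and at least 20.9-fold to 3090-fold higher over the list. These bounds follow from the rule, which asks for at least 20 counts in each library, and they describe only how many counts the members had. The smallest bound of any member, from its lowest library, was 14.7-fold. The median was 28.0-fold from the lowest library, and 51.5-fold and 61.1-fold with the limit taken from P. revoluta plant 2 or plant 1 alone.

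**Figure D2:**
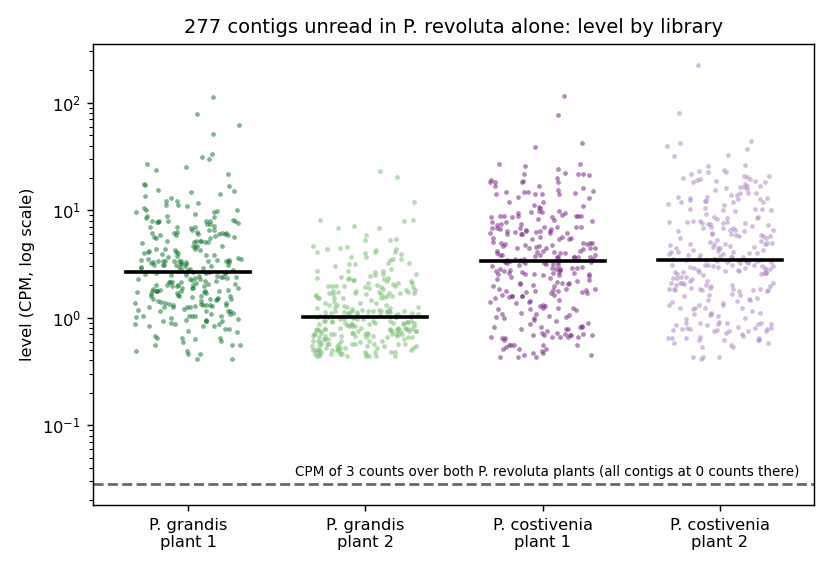
Level in CPM (log axis) of each of the 277 contigs (points) in the 4 libraries, with the median as a bar. The medians are 2.69, 1.01, 3.38 and 3.44 CPM from left to right, and the dashed line marks 0.0281 CPM, the level of 3 counts over both P. revoluta libraries, where all 277 had 0 counts.

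P. grandis plant 2 held the least of these contigs. Its median level was 1.01 CPM, against 2.69 CPM in P. grandis plant 1, 3.38 CPM in P. costivenia plant 1 and 3.44 CPM in P. costivenia plant 2. Together the 277 contigs took 468 CPM of P. grandis plant 2, 1503 CPM of P. grandis plant 1, and 1700 and 2030 CPM of the P. costivenia plants. P. grandis plant 2 was the lowest of the 4 libraries for 194 members (70.0%), while P. grandis plant 1 was lowest for 23 and the P. costivenia plants for 29 and 31. Of the 20653 contigs with at least 20 counts in all 6 libraries, P. grandis plant 2 was the lowest of the same 4 for 17.4%. There P. grandis plant 1 was lowest most often, for 40.1%. Within a mean of 1 to 10 CPM, the shares lowest in P. grandis plant 2 were 70.0% of 230 members and 16.1% of 7953 contigs read in all libraries. Of the 194 members lowest in P. grandis plant 2, 51 were highest in P. grandis plant 1 and 143 in a P. costivenia plant.

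The share lowest in P. grandis plant 2 went with the P. revoluta counts beyond the list. Among contigs with at least 20 counts in each of the 4 hyperaccumulator libraries, it was 67.5% of 228 contigs with 1 to 3 counts over both P. revoluta libraries and 57.8% of 429 with 4 to 19. It was 45.0% of 1606 with 20 to 99, 21.5% of 7720 with 100 to 999, and 12.9% of 12035 with 1000 or more. The median ratio of P. grandis plant 1 to plant 2 went from 2.73 in the members through 2.75, 2.34, 1.77 and 0.926 to 0.722 in the same order. So the plant pair differed in opposite directions at the ends of this series. The higher bands also hold contigs of higher level, with a median of 24.4 to 33.6 CPM in the last.

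**Figure D3:**
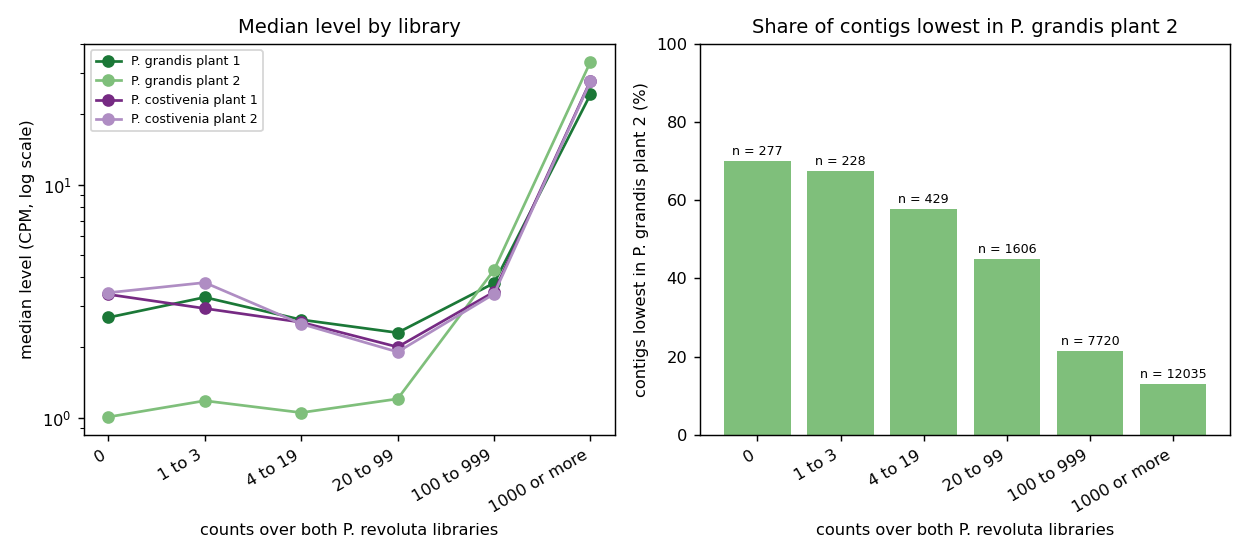
Contigs with at least 20 counts in each P. grandis and P. costivenia library, split by their counts over both P. revoluta libraries (horizontal axis, the members at 0). Left, the median level in CPM (log axis) in the 4 libraries; right, the share of contigs lowest in P. grandis plant 2, which goes from 70.0% of the 277 members to 12.9% of the 12035 contigs with 1000 or more P. revoluta counts.

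Between the P. grandis plants, plant 1 was higher for 246 of the 277 members, with a median ratio of 2.73. The plants were at least 4-fold apart for 70 members (25.3%), 67 with plant 1 higher (24.2%) and 3 with plant 2 higher (1.08%). In the 20653 contigs with reads in all libraries, 17.1% were that far apart, 3.82% with plant 1 higher and 13.2% with plant 2 higher. The balance thus lay the other way there, with a median ratio of 0.811. With 1 plant on each side, these are sizes without a test. Of the 67 members, 43 had more CPM in P. grandis plant 1 than in both P. costivenia plants.

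Pgra_v1_contig_4249 and Pgra_v1_contig_7795 had the largest ratios of P. grandis plant 1 to plant 2. Pgra_v1_contig_4249 had 78.0 and 0.744 CPM in the P. grandis plants (105-fold) and 1.58 and 0.786 CPM in the P. costivenia plants. Pgra_v1_contig_7795 had 31.4 and 0.744 CPM (42.2-fold), with 2.07 and 2.03 CPM in P. costivenia. In both contigs P. grandis plant 1 stood alone above the other libraries. Pgra_v1_contig_28425 and Pgra_v1_contig_32245 went the other way, with 7.09 and 6.76 CPM in P. grandis plant 2, which were 14.3-fold and 6.58-fold above plant 1. Their P. costivenia levels were 1.37 and 1.16 CPM and 1.52 and 2.05 CPM, so that plant 2 was the high library in each.

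The P. costivenia plants lay closer together. They were within 2-fold of each other for 208 of the 277 members, against 92 for the P. grandis plants, with a median ratio of 0.976. Of the 20653 contigs read in all libraries, 18709 were within 2-fold in P. costivenia and 11378 in P. grandis. The P. costivenia plants were at least 4-fold apart for 20 members (7.22%), 5 with plant 1 higher and 15 with plant 2 higher. In the contigs read in all libraries the share was 1.72%, of which 1.12% had plant 1 higher and 0.6% had plant 2 higher. Pgra_v1_contig_23112 had 0.449 CPM in P. costivenia plant 1 and 22.5 CPM in plant 2 (50.1-fold), with 6.17 and 5.36 CPM in P. grandis. Pgra_v1_contig_16894 had 0.428 and 15.7 CPM (36.8-fold), with 4.08 and 7.86 CPM in P. grandis. Here 1 plant of P. costivenia was near the minimum of the rule while P. grandis lay between the extremes. In the opposite direction, Pgra_v1_contig_14743 had 4.94 and 0.766 CPM (6.45-fold) and Pgra_v1_contig_38187 had 2.33 and 0.435 CPM (5.36-fold) in P. costivenia. Their P. grandis levels were 11.6 and 3.66 CPM and 0.455 and 0.525 CPM.

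**Figure D4:**
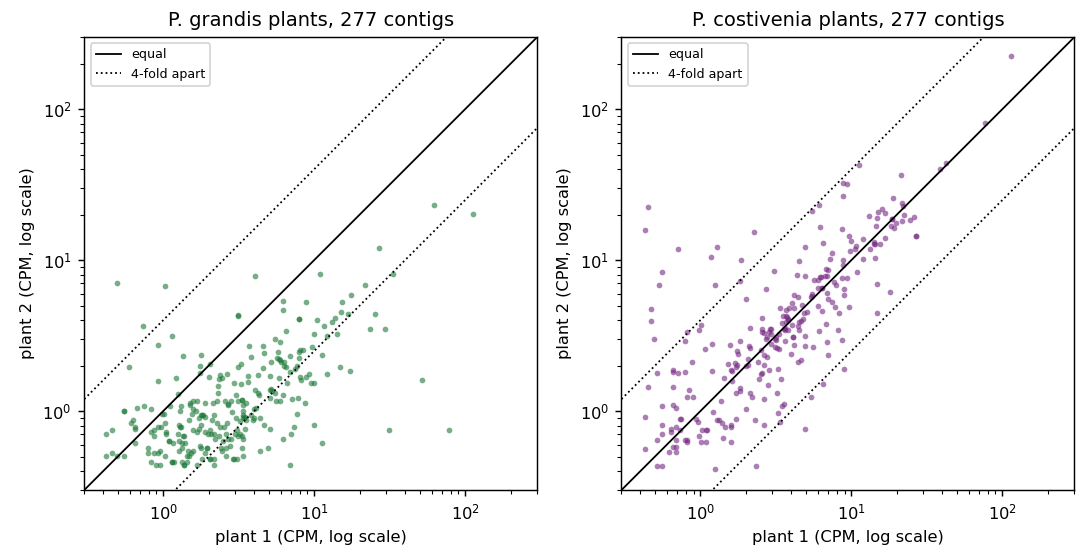
Level of each of the 277 contigs in plant 1 (horizontal) and plant 2 (vertical) of P. grandis (left) and P. costivenia (right), in CPM on log axes, with the line of equal level and dotted lines 4-fold apart. In P. grandis 246 points lie below the line of equal level, and in P. costivenia 134 do.

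Levels in a library varied together with those of the other plant of the species more than with those of the other species. Across the 277 members, log2 CPM of the P. costivenia plants had a Pearson's r of 0.756, and that of the P. grandis plants 0.593. It was 0.184 to 0.253 for the 4 pairs made of a P. grandis and a P. costivenia plant. In the contigs read in all libraries the values were 0.961, 0.757 and 0.708 to 0.826. Contigs share libraries and depth, and the members all lay above the same minimum.

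Setting P. grandis beside P. costivenia showed how the counts of the hyperaccumulators differed in these contigs. Both were counted on P. grandis contigs, so differences in RNA level cannot be told apart from differences in how well reads were placed. The rule did not use this contrast, but the choice was not independent of it. As given above, contigs with fewer P. revoluta counts were more often lowest in P. grandis plant 2. A choice by absence in P. revoluta therefore also bears on the P. grandis levels compared here. The minimum of 20 counts further bounds the difference for members of low level. The P. costivenia plants were both above both P. grandis plants for 133 members (48.0%), and both below for 25 (9.03%). For 119 members the species overlapped. In the contigs read in all libraries the shares were 23.5% and 29.9%. On the scale of TMM, a scaling of library totals that reduces the weight of strongly differing contigs, the numbers were 143 (51.6%) and 16 (5.78%), where the contigs read in all libraries had 32.7% and 22.3%. In those contigs the more frequent direction turned with the scaling, and in the members it did not. By mean CPM, 61 members were at least 4-fold higher in P. costivenia and 17 in P. grandis. P. grandis plant 2 lay below both P. costivenia plants for 212 members and above both for 30. P. grandis plant 1 lay below both for 138 and above both for 98. No share over all contigs is given for these counts by mean CPM or by single plant. They describe the members only and do not set them apart from other contigs.

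By edgeR's quasi-likelihood test, with p-values adjusted over all 35660 contigs tested by the Benjamini-Hochberg method, 3 of the 277 members passed a threshold of 0.05 (1.08%), all higher in P. costivenia. Of all contigs tested, 2.68% passed, 1.83% higher in P. grandis and 0.852% higher in P. costivenia. All 277 members were tested. The median log2 fold change of P. grandis over P. costivenia was -1.07 in the members, with quartiles of -2.02 and 0.15, and 0.24 in all contigs tested. At an unadjusted p of at most 0.05 in edgeR there were 74 members (26.7%, against 26.2% of all contigs). Of these, 67 were higher in P. costivenia and 7 in P. grandis. No share by direction over all contigs is given at this threshold, so this split describes the members only. DESeq2 called 58 members (20.9%), 51 higher in P. costivenia and 7 in P. grandis, where it called 22.4% of all contigs, 9.1% and 13.3%. So the share of members called was near or below that of all contigs with either tool, while higher levels in P. costivenia made up most of the members called. Leaving out P. grandis plant 1 moved the median to -2.10, and leaving out plant 2 moved it to -0.59. In these fits P. grandis had 1 plant, and edgeR called 83 members (29.96%) and 51 members (18.4%), where it called 24.1% and 25.9% of all contigs tested.

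**Figure D5:**
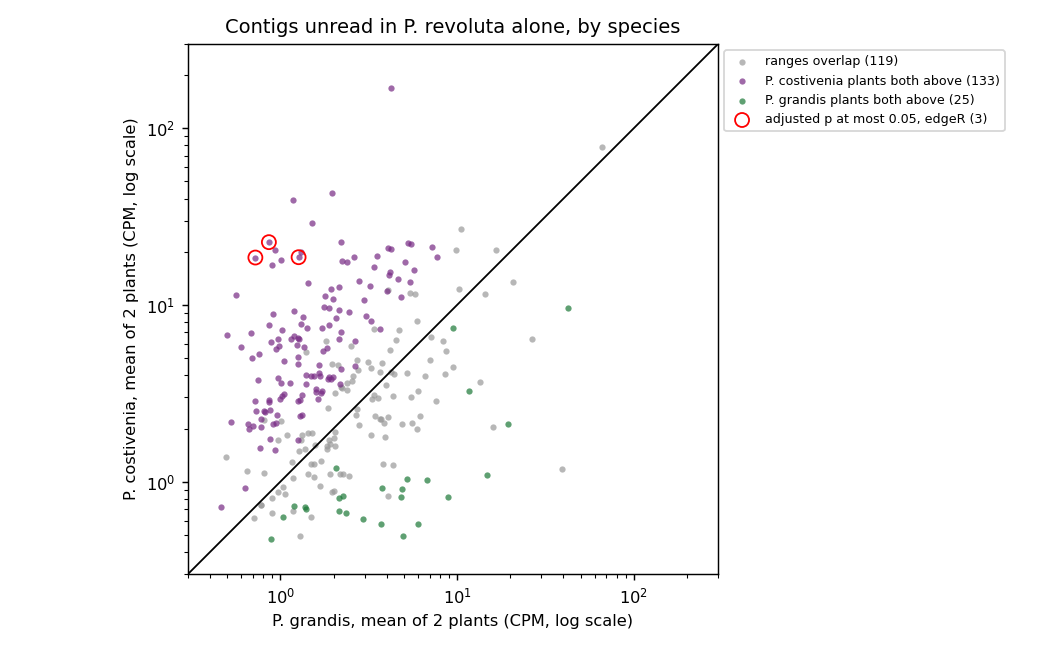
Mean level of each of the 277 contigs in P. grandis (horizontal) and P. costivenia (vertical), in CPM on log axes over 2 plants, coloured by whether both plants of a species lie above both of the other. Both P. costivenia plants lie above for 133 contigs and both P. grandis plants for 25, and the 3 ringed contigs passed the adjusted threshold in edgeR.

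The 3 contigs that passed had close values in both plants of each species. Pgra_v1_contig_41624 had 0.673 and 1.05 CPM in P. grandis and 21.6 and 23.7 CPM in P. costivenia (log2 fold change -4.97, SE 0.48, edgeR adjusted p = 0.0396). Pgra_v1_contig_28457 had 0.613 and 0.832 CPM in P. grandis and 18.5 and 18.6 CPM in P. costivenia (log2 fold change -4.93, SE 0.49, edgeR adjusted p = 0.0396). Pgra_v1_contig_22918 had 1.25 and 1.29 CPM in P. grandis and 18.5 and 18.8 CPM in P. costivenia (log2 fold change -4.11, SE 0.46, edgeR adjusted p = 0.0398). The last 2 were named after their values were seen, because they passed. None of the 3 passed in the model of the 4 P. grandis and P. costivenia libraries, or after leaving out any plant of P. costivenia or of P. revoluta, which left 1 plant in that species. In each of these fits edgeR called 0 of all contigs tested, so the loss was not limited to these contigs. Over all alternatives the adjusted p ran from 7.43e-25 (DESeq2) to 0.227 for Pgra_v1_contig_41624, from 1.87e-24 to 0.225 for Pgra_v1_contig_28457 and from 4.12e-17 to 0.234 for Pgra_v1_contig_22918.

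The largest fold changes did not all pass. Pgra_v1_contig_4883 had 6.49 and 1.95 CPM in P. grandis and 114.5 and 224.6 CPM in P. costivenia (log2 fold change -5.51, SE 0.91, edgeR adjusted p = 0.0619). Pgra_v1_contig_2518 had 1.78 and 0.569 CPM in P. grandis and 38.9 and 40.0 CPM in P. costivenia (log2 fold change -5.25, SE 0.79, edgeR adjusted p = 0.0550). In both, P. costivenia lay far above P. grandis without overlap. In the opposite direction, Pgra_v1_contig_4249 differed by a log2 fold change of 4.92 (SE 2.18, edgeR adjusted p = 0.241), which rested on P. grandis plant 1 and was -1.01 without that plant. Pgra_v1_contig_2225 had 25.3 and 4.38 CPM in P. grandis and 1.33 and 0.869 CPM in P. costivenia (log2 fold change 3.59, SE 1.10, edgeR adjusted p = 0.142). Pgra_v1_contig_6644 had 13.7 and 4.12 CPM in P. grandis and 0.556 and 1.08 CPM in P. costivenia (log2 fold change 3.26, SE 0.94, edgeR adjusted p = 0.129). Both P. grandis plants lay above both P. costivenia plants in these last contigs, without passing the test. DESeq2 called all 5 of these contigs, with adjusted p from 4.74e-08 to 0.0276, and over all alternatives their adjusted p reached 0.252 to 0.598.

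The 10 members with the highest level in their lowest library were lowest in P. grandis plant 2 in 8 cases. Pgra_v1_contig_3002 led them, with 112.1 and 20.3 CPM in the P. grandis plants and 76.6 and 80.6 CPM in the P. costivenia plants, from 929 counts or more in each library. Its P. costivenia mean was 78.6 ± 2.80 CPM (SD, n = 2) and its P. grandis mean 66.2 ± 64.9 CPM, so the species overlapped. Pgra_v1_contig_5334 had 62.0 and 23.0 CPM in P. grandis and 10.9 and 8.30 CPM in P. costivenia, with both P. grandis plants above. Pgra_v1_contig_8582 had 33.5 and 8.10 CPM in P. grandis and 14.3 and 12.9 CPM in P. costivenia, and Pgra_v1_contig_9629 had 21.8 and 6.87 CPM and 10.7 and 12.5 CPM. In these the P. costivenia plants lay between the P. grandis plants.

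Pgra_v1_contig_13504 had 11.0 and 8.10 CPM in P. grandis and 6.89 and 7.84 CPM in P. costivenia, and Pgra_v1_contig_5593 had 8.88 and 5.28 CPM and 5.67 and 7.43 CPM. All 4 libraries of each lay within a factor of 2. Pgra_v1_contig_8919 had 6.17 and 4.64 CPM in P. grandis and 14.2 and 12.9 CPM in P. costivenia, both above. Pgra_v1_contig_13435 had 15.3 and 5.30 CPM in P. grandis and 8.72 and 16.1 CPM in P. costivenia. Pgra_v1_contig_6849 had 15.1 and 4.53 CPM and 26.6 and 14.5 CPM. Pgra_v1_contig_21568 had 16.8 and 4.42 CPM and 11.3 and 42.4 CPM. In the last 3 the species overlapped, with P. grandis plant 2 lowest. By edgeR, log2 fold changes of the 10 ran from -1.54 (SE 0.48) to 1.96 (SE 0.65), and 0 passed the adjusted threshold. There were 2 with an unadjusted p of at most 0.05 in edgeR, and DESeq2 called 1, Pgra_v1_contig_8919.

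The plants lay within 2-fold of each other in P. grandis and in P. costivenia alike for 65 members. Among these, both P. costivenia plants were above for 47 (72.3%), both P. grandis plants for 9 (13.8%), and the species overlapped for 9. Of the 10531 contigs read in all libraries that met the same condition, 30.4% and 37.6% were apart in these directions. This choice of members was made after their values were seen and is a description.

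Contig numbers of the members ran from 989 to 41624. The highest numbers were thinly represented, with 1 member (0.361%) among numbers above 40000, where 11.4% of all contigs lie, and 98 members (35.4%) among numbers 20001 to 30000, where 22.2% lie. These shares are over all contigs, of which 22295 of 45143 reach the minimum of 20 counts that every member had to reach. So they are not like for like, and the numbers of contigs reaching the minimum were not compared. What the order of numbers stands for is not given in the sources used here. In 10 pairs the members had consecutive numbers, and whether such pairs belong to 1 gene was not tested. Both contigs were lowest in P. grandis plant 2 in 8 of the pairs, and the fold change between species had the same sign in 8. Among all members 70.0% were lowest in that plant, and 197 of 277 had a negative fold change. Likeness within pairs is therefore frequent among members in any case, and with 10 pairs it was not tested. Pgra_v1_contig_11082 and Pgra_v1_contig_11083 had 389 and 312 counts in P. grandis plant 1, 91 and 58 in plant 2, 35 and 24 in P. costivenia plant 1 and 43 and 31 in plant 2. Their counts went in parallel over the libraries. Pgra_v1_contig_15162 and Pgra_v1_contig_15163 differed more, with 348 and 258 counts in P. grandis plant 1 but 147 and 407 in P. costivenia plant 1.

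The same rule turned to P. costivenia, with no count in either of its libraries and at least 20 in each P. grandis and P. revoluta library, gave 240 contigs. Turned to P. grandis it gave 0, which was all but fixed beforehand. The contigs are those of the P. grandis transcriptome, and P. grandis plant 1 had reads on 45142 of 45143. In the 240 contigs the lowest of the 4 libraries with reads was P. grandis plant 1 for 114 and P. grandis plant 2 for 36. The median ratio of P. grandis plant 1 to plant 2 was 0.867, against 2.73 in the contigs unread in P. revoluta. The lists share no contig by their rules. The difference between them was not tested.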

How the data were processed

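Each plant has 1 deposited table of raw counts of reads on each contig, as named in the file headers. Reads were paired-end and were counted on contigs of the P. grandis transcriptome, per the series design text, from stranded polyA libraries (Illumina TruSeq), per the labels' protocols. The aligner, the counter, the use of strand and the handling of reads with several matches are, for these tables, not given in the sources used here. Values of contigs that are near-identical or overlap are therefore uncertain.

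Members and tests were chosen with earlier results of these data known. Levels are CPM of the library total. The contrast of P. grandis with P. costivenia was fitted in R 4.3.3 with edgeR 4.0.16 (filterByExpr with minimum count 10 and minimum total 15, TMM, robust glmQLFit, glmQLFTest, two-sided) on 35660 contigs of all 6 libraries, with species as the factor. Residual degrees of freedom were 3, and the prior ones had a median of 2.43. The SE was taken as the absolute log2 fold change over the square root of F. DESeq2 1.42.0 was an alternative. The plants of a species differed by more than sampling noise (mean chi-square per contig 62.2 or more, where sampling alone gives about 1), so none was counted as a copy.

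Contigs were named by rule: the 10 with the highest CPM in their lowest library, the 3 largest fold changes between species in each direction, the 2 largest ratios between plants of a species in each direction, and 2 on each side of the limits. Limits from 0 counts use 3 counts.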

Additional observations from a re-analysis of the deposited data

How the results depend on the processing

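The number of contigs unread in P. revoluta alone, 277, was 497 with a minimum of 10 counts in the 4 libraries, 93 with 50, 33 with 100, and 505 with up to 3 counts over both P. revoluta libraries. With 1 plant dropped from the rule it ran from 280 to 559, the latter without P. grandis plant 2. Members called between P. grandis and P. costivenia numbered 3 in edgeR and 58 in DESeq2. Without the filter on low counts edgeR called 13 (4.69%, against 2.98% of all contigs). In the model of 4 libraries 0 members and 0 of all contigs passed in edgeR (smallest adjusted p of a member 0.137). With 1 plant left out they ran from 0 to 83, with 83 without P. grandis plant 1 (29.96%, against 24.1% of all contigs), 51 without P. grandis plant 2 (18.4%, against 25.9%), and 0, as for all contigs, when a plant of P. costivenia or of P. revoluta was dropped, where the unadjusted p was at most 0.05 for 41 to 75. The lone plant of a species is then assumed to vary like the others. The median log2 fold change of the members ran from -2.105 to -0.59 with 1 plant left out.

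The plant numbers are shared labels only. The deviations of plant 1 from plant 2 correlated at 0.115 between P. grandis and P. costivenia, -0.0622 between P. grandis and P. revoluta and 0.0142 between P. costivenia and P. revoluta. With a replicate block, 0 members passed in edgeR, and 0 of all contigs did.

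Members apart between the P. grandis plants, 70 at 4-fold, were 185 at 2-fold and 21 at 4-fold in CPM + 1. For the P. costivenia plants, 20 at 4-fold became 69 and 8. The median bound of the fold over P. revoluta, 112.6, which follows from the rule, was 28.0 from the lowest library and ran from 51.5 to 134.6 with 1 plant left out, lowest without P. revoluta plant 1, since 3 counts weigh more in a single library. Contigs without reads in P. revoluta plant 1 that had reads in plant 2, 95 in all, were 157 with a minimum of 10 counts and 39 with 50, alternatives added after seeing the data. The 194 members lowest in P. grandis plant 2 were 209 with TMM, 217 with DESeq2 size factors, and 76 of 93 with at least 50 counts, also added. TMM scales this plant down, with a factor of 1.121 against 0.883 to 0.975 in the other hyperaccumulator libraries. Without another plant they were 205 to 213, but leaving out a plant can only keep or raise this number. No share over all contigs is given for these settings. The species did not overlap for 158 members in CPM, 133 (48.0%) with P. costivenia above and 25 (9.03%) with P. grandis above. On the TMM scale it was 159 members, 143 (51.6%) and 16 (5.78%). Of the 65 with plants within 2-fold in both species it was 56, 47 (72.3%) and 9 (13.8%). These counts were also added. In contigs read in all libraries the shares were 23.5% and 29.9%, 32.7% and 22.3%, and 30.4% and 37.6%. Over both directions together, the member shares in CPM and on the TMM scale were near those of these contigs. Of the log2 fold changes of 8 named contigs, 1 turned, that of Pgra_v1_contig_4249, which ran from -1.01 without P. grandis plant 1 to 5.91 without plant 2. The other 7 kept their direction under the alternatives run. The limit of 0.0281 CPM in P. revoluta covers counting error only. It does not cover reads too different in sequence to be placed on P. grandis contigs.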
